A study of Rattus norvegicus with 6 samples.

Results

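The transcripts of Timp1, Cp, A2m and Lcn2 were followed in the spinal cord of rats with the G93A mutation of SOD1, which models amyotrophic lateral sclerosis, and of wild-type (WT) littermates. They are 4 of the 8752 genes with a probe detected on at least 1 array, out of 12978 genes named on the platform, and each was measured by 1 probe. They were selected on the differences between mutant and WT pools at onset and end stage on these same arrays, so their values are given as a description and carry no test.

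The rats were female and of the Sprague-Dawley strain, and the mutant animals carried the G93A form of SOD1. Each array, an Illumina BeadChip, received 750 ng of RNA pooled from 5 rats of one genotype killed before symptoms, at onset or at end stage. There were thus 6 arrays from 30 rats, 3 of WT pools and 3 of mutant pools, and each genotype had a single pool at each stage. The WT pools came from littermates matched for age and sex. The labels give 10 weeks as the age of every sample, whereas the study design gives that age for the presymptomatic stage alone, so the WT pools may differ in age. The labels also name both the lumbar and the thoracic cord, and the sources used here do not give the promoter of the transgene. The number of arrays limits the precision.

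TIMP1 and alpha-2-macroglobulin, the product of A2m, are secreted inhibitors of proteases. TIMP1 blocks matrix metalloproteinases, and alpha-2-macroglobulin traps proteases of many classes and is a strong acute-phase protein in rats. Ceruloplasmin, the product of Cp, is a copper-bearing ferroxidase that helps iron leave cells and that astrocytes carry on their surface, and lipocalin 2, the product of Lcn2, binds iron-loaded bacterial siderophores and is made by neutrophils and by reactive glia. In mice, Timp1, Cp and Lcn2 are counted among the genes that astrocytes switch on after many kinds of injury, and in liver A2m, Cp and Lcn2 respond to the cytokines of the acute phase.

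Gene names depend on sorting the probe IDs, since the deposited IDs and values were out of step. With the IDs sorted as text, 18 of 1305 probes for odorant, taste and related receptors were detected on all 6 arrays, or 1.38% (exact 95% binomial interval 0.819 to 2.17). With the IDs as deposited the count was 493, or 37.8% (35.1 to 40.5). For ribosomal, respiratory chain and proteasome genes the order of the shares was the opposite, with 158 of 178 probes (88.8%, 83.2 to 93) after sorting and 77 (43.3%, 35.9 to 50.9) as deposited. The intervals cover counting error only. Arrays had between 9116 detected probes (presymptomatic mutant pool) and 10942 (presymptomatic WT pool) of 22226.

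Promoter sequences of Timp1 and Lcn2 are shown because these genes were searched for the binding patterns of acute-phase transcription factors and held matches. They come from RefSeq (assembly GRCr8), run 5′ to 3′ on the strand of the gene from 250 bases before a transcript start to 50 after it, and lie at chrX:3771073-3771372 (minus strand) for Timp1 and chr3:36081731-36082030 (minus strand) for Lcn2. That start is the one the promoter table gives, and it lies inside the annotated span of Timp1, Lcn2 and Cp alike, so other transcripts of these genes may start elsewhere. Capitals mark the matches.
Timp1: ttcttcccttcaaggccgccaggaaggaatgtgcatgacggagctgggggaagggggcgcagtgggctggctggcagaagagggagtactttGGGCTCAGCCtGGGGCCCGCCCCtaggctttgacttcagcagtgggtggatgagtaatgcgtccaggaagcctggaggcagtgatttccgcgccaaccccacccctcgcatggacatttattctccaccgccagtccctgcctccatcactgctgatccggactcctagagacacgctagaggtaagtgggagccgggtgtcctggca
Lcn2: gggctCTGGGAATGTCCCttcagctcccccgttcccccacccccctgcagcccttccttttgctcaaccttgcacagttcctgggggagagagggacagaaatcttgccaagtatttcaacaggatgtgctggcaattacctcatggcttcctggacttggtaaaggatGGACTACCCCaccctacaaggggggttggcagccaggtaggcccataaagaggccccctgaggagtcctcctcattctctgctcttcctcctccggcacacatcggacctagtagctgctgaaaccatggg
In all, 5 patterns were searched on both strands, namely TTCNNNGAA for STAT factors, CTGGGAA as the core of the acute-phase response element, TTNNGNAAT for C/EBP factors, TGANTCA for AP-1, and GGG and CC separated by 5 bases for NF-kB. In Lcn2 the acute-phase core lay at bases -245 to -239 from the start and overlapped NF-kB matches at -243 to -234 and, on the opposite strand, at -242 to -233, and a further NF-kB match lay at -81 to -72. The Timp1 window held 4 matches, all of the NF-kB pattern and 3 of them overlapping, between -158 and -136. The Cp window held a match to none of the 5 patterns. Among all 33469 promoters of the same length, 47.3% held the NF-kB pattern, 11.3% the acute-phase core, 12.3% the C/EBP pattern, 8.87% the STAT pattern and 7.33% the AP-1 pattern. A match is a stretch of letters and not a measured binding site. A2m was not matched in the promoter table.

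Levels were read on 2 scales. The deposited intensity is a linear, background-subtracted brightness of the probe, and the normalized log2 intensity is the same value after background modelling with an added constant of 16 and quantile normalization across the arrays. All 4 probes were detected on all 6 arrays, with a deposited detection p-value of 0 each time.

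Timp1, the metalloproteinase inhibitor, had intensities of 942, 1471 and 913 in the WT pools of the presymptomatic, onset and end stages. In the mutant pools of the same stages the intensities were 1363, 4957 and 6626. The onset and end-stage mutant pools lay above every WT pool, and the presymptomatic mutant pool lay within the WT range. On the normalized log2 scale the WT pools averaged 9.99 ± 0.4 (SD, n = 3), the presymptomatic mutant pool stood at 10.34, the onset pool at 12.32 and the end-stage pool at 12.65. Against the WT pool of the same stage Timp1 was 1.5-fold higher before symptoms, 3.66-fold higher at onset and 7.47-fold higher at end stage. The step between the onset and end-stage mutant pools, 0.33 on the log2 scale, was smaller than the SD among the WT pools. WT itself stood lower at end stage (9.75) than at onset (10.45), and measured from the mean of the WT pools the onset and end-stage differences were 2.33 and 2.67 (log2).

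A2m, the broad protease trap, had intensities of 1369, 2126 and 1387 in the presymptomatic, onset and end-stage WT pools. The mutant pools of these stages had 1353, 2560 and 4782. The presymptomatic mutant pool was the lowest of the 6 by a small margin, and only the end-stage mutant pool stood well clear of the WT pools. The normalized levels were 10.58 ± 0.39 (SD, n = 3) in WT and 10.32, 11.34 and 12.24 in the successive mutant pools. Against WT of the same stage the log2 differences were -0.01 before symptoms, 0.31 at onset and 1.86 at end stage, the last a 3.63-fold difference. The onset mutant pool was above the highest WT pool, that of onset at 11.03, by less than the SD among WT pools. The onset difference of A2m was 16.6% of its end-stage difference on the log2 scale, against 64.5% for Timp1, 54.2% for Cp and 55.4% for Lcn2. The WT onset pool was itself high, and from the mean of the WT pools the A2m differences were 0.76 at onset and 1.66 at end stage.

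Cp, the ferroxidase, had intensities of 53.7, 114 and 65.8 in the presymptomatic, onset and end-stage WT pools. The mutant pools had 36.3, 360.0 and 561. The presymptomatic mutant pool was the lowest of the 6 arrays, and the other mutant pools lay above all WT pools. The normalized levels were 6.97 ± 0.11 (SD, n = 3) in WT and 6.89, 8.15 and 8.93 in the successive mutant pools, close in WT to the floor of the scale at 6.62. Near this floor differences are compressed, and Cp at end stage was 3.9-fold higher than WT of the same stage on the normalized scale but 8.52-fold higher by deposited intensity. At onset these folds were 2.09 and 3.16. Before symptoms the normalized levels of both genotypes were alike (log2 difference 0.03) while the ratio of the deposited intensities, mutant over WT, was 0.676. In the mutant Cp stood 0.78 higher at end stage than at onset on the log2 scale. The SD of 0.11 among the WT pools is compressed by the floor, since their intensities ran from 53.7 to 114. It therefore gives no measure of error for that step.

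Lcn2, the siderophore-binding lipocalin, had intensities of 304, 173 and 136 in the presymptomatic, onset and end-stage WT pools. The mutant pools had 196, 387 and 576. Lcn2 differed from the other 3 genes in that its highest WT pool was the presymptomatic one, which also stood above the mutant pool of its stage. The normalized levels were 7.53 ± 0.39 (SD, n = 3) in WT and 7.71, 8.27 and 8.99 in the successive mutant pools. The stage-matched log2 differences were -0.27 before symptoms, 0.94 at onset and 1.7 at end stage, which correspond to Lcn2 1.21-fold lower, 1.92-fold higher and 3.26-fold higher in the mutant. The onset mutant pool exceeded the highest WT pool by 0.3, less than the SD among the WT pools, and the end-stage pool exceeded it by 1.01. From the mean of the WT pools the presymptomatic difference had the opposite sign, 0.18.

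**Figure D1:**
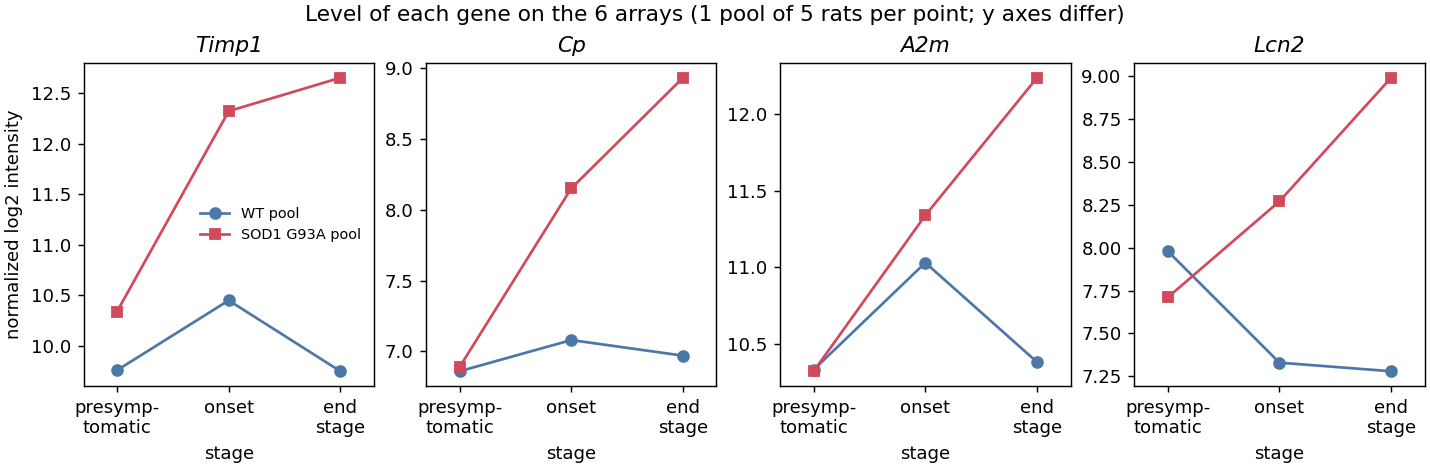
Normalized log2 intensity (y axis, a separate range for each gene) of Timp1, Cp, A2m and Lcn2 by stage (x axis), with each point 1 pool of 5 rats and no error bars because each group is 1 array. The mutant pools climb from the presymptomatic stage to end stage for each gene. The presymptomatic mutant pool lies within the range of the WT pools for Timp1, Cp and Lcn2 and just below it for A2m. Against WT of its stage it lies higher for Timp1 (10.34 against 9.76) and lower for Lcn2 (7.71 against 7.98).

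Neutrophil transcripts followed the same pools as Lcn2 in part. S100a8, a calcium-binding protein abundant in neutrophils, had intensities of 1161, 286 and 217 in the WT pools and 515, 320 and 684 in the mutant pools, in order of stage. Mpo, the neutrophil myeloperoxidase, had 102, 24.9 and 10.6 in WT and 10.4, 7.68 and 38.8 in the mutant. Both were highest in the presymptomatic WT pool, where Lcn2 was also highest among WT, and both were higher in the mutant than in WT at end stage. At onset, where Lcn2 was 1.92-fold higher in the mutant, S100a8 was higher by 0.15 on the log2 scale and Mpo was not detected in the mutant pool. Of 12 neutrophil markers, 7 had a detected probe, 0 passed the test between symptomatic mutant and WT pools, and Ltf, S100a9, Csf3r, Fpr1 and Mmp8 were detected on no array. The summed intensity of the 7 ran from 255.5 to 1472 over the WT pools and from 419.6 to 815.3 over the mutant pools. At end stage Lcn2 was 3.26-fold, S100a8 3.06-fold and Mpo 1.09-fold higher in the mutant than in WT on the normalized scale. Mpo lay near the floor of that scale at 6.62, with 6.73 in WT, where it was not detected, and 6.85 in the mutant. Differences are compressed there, and the deposited intensities of Mpo at end stage were 10.6 in WT and 38.8 in the mutant. The part of neutrophils in the Lcn2 values was not tested.

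**Figure D2:**
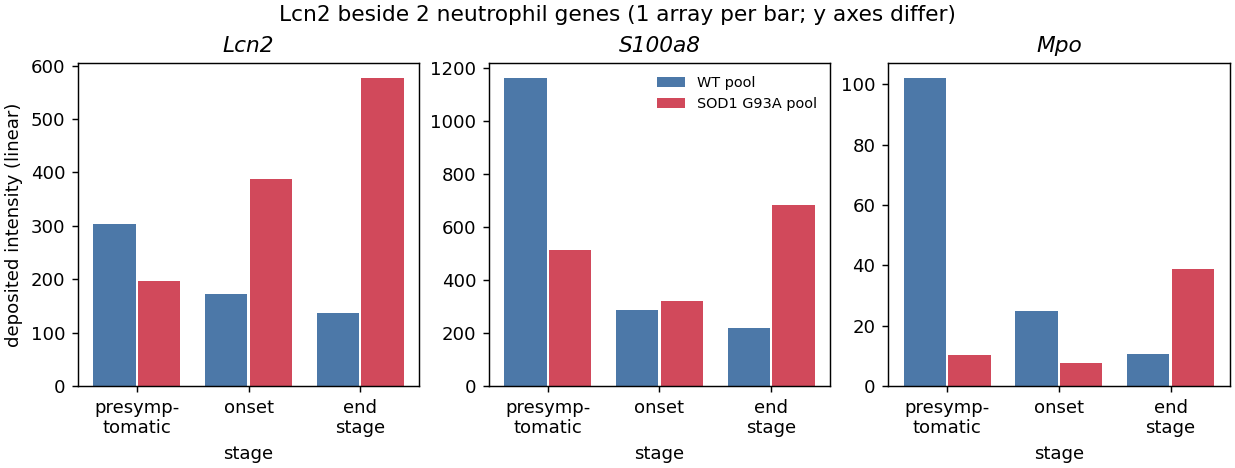
Deposited linear intensity (y axis from 0, a separate range for each gene) of Lcn2, S100a8 and Mpo by stage (x axis), 1 array per bar. All 3 are highest among WT in the presymptomatic pool, while at onset the Lcn2 bars are 387 in the mutant and 173 in WT and the S100a8 bars are 320 and 286. At end stage the Lcn2 bars are 576 in the mutant and 136 in WT and the S100a8 bars are 684 and 217.

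Over the 3 stages the 4 genes moved apart from WT step by step. Before symptoms 0 of the 4 differed by 2-fold from WT of the same stage, beside 0.38% of 7892 genes higher and 2.64% lower by 2-fold or more. At onset 2 of the 4, Timp1 and Cp, were at least 2-fold higher, beside 1.88% higher and 0.189% lower of 7940 genes. At end stage all 4 were at least 2-fold higher, beside 3.68% higher and 1.86% lower of 7942 genes. These are the contrasts that led to the choice of the genes, so the shares are set side by side as a description. Each of the 4 had both symptomatic mutant pools above all 3 WT pools, as did 17.6% of 8752 genes, while 18.8% had both below.

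The median stage-matched log2 difference of the 4 genes was 0.01 before symptoms, 1.0 at onset and 1.91 at end stage, and that of all 8752 genes was 0.02, -0.01 and -0.01. The central 95% of all genes ran from -0.97 to 0.69 before symptoms, from -0.57 to 0.8 at onset and from -0.89 to 1.17 at end stage. All 4 genes lay inside this range before symptoms, A2m alone lay inside it at onset, and all lay above it at end stage. Ranked from the highest end-stage difference among 7942 genes, Timp1 was number 11, Cp 54, A2m 65 and Lcn2 88. The neighbours of Timp1 in that order were Gas7 (3.02) and the apolipoprotein gene Apoc1 (2.82). Cp stood between Tspo (2.01), a mitochondrial translocator protein used as a marker of glial reaction, and Gusb (1.96), a lysosomal glucuronidase. A2m lay next to Tspan8 and the collagen gene Col3a1, both at 1.86, and Lcn2 next to Il33 (1.71), a cytokine, and Bmp7 (1.7), a growth factor. At onset the ranks among 7940 genes were 28 for Timp1, 130 for Cp, 170 for Lcn2 and 789 for A2m.

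**Figure D3:**
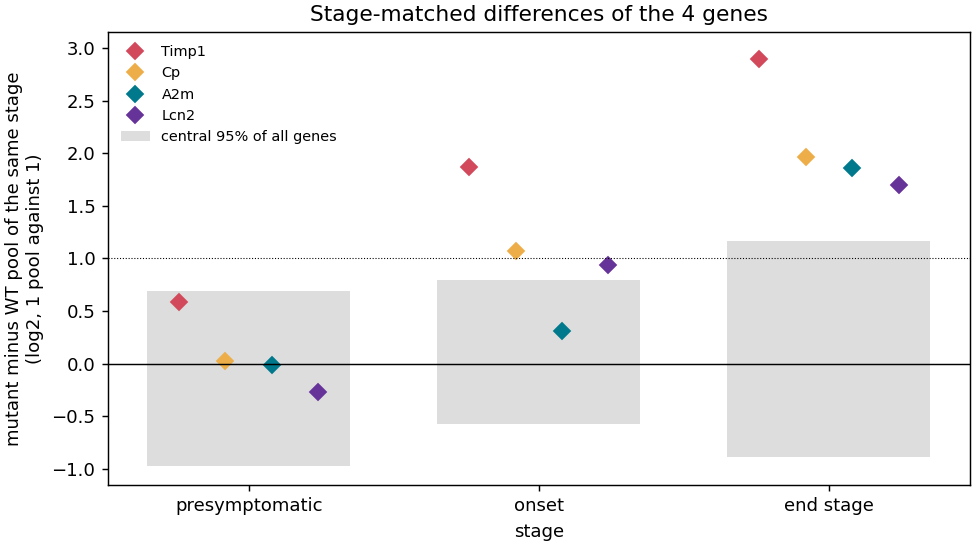
Difference between the mutant and WT pools of a stage on the normalized log2 scale (y axis) for each gene at each stage (x axis), 1 pool against 1, with the central 95% of all genes as a grey band and 2-fold as the dotted line. At onset Timp1 (1.87), Lcn2 (0.94) and Cp (1.07) lie above the band and A2m (0.31) inside it, and at end stage all 4 lie above it.

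Within the mutant pools the genes also differed in when the larger step fell. From the presymptomatic stage to onset Timp1 was 3.94-fold higher, Cp 2.39-fold, A2m 2.02-fold and Lcn2 1.48-fold. From onset to end stage the folds were 1.26 for Timp1, 1.72 for Cp, 1.87 for A2m and 1.64 for Lcn2. On this normalized scale the first step was the larger for Timp1, Cp and A2m, and the second for Lcn2. For A2m and Lcn2 the steps differed by less than the SD of 0.39 among the WT pools of each gene. By the ratio of deposited intensities (196, 387 and 576 in order of stage) the first step of Lcn2 was the larger. Over the whole course from the presymptomatic to the end-stage mutant pool Timp1 was 4.97-fold, Cp 4.12-fold, A2m 3.78-fold and Lcn2 2.43-fold higher on the normalized scale. The presymptomatic Cp level lay near the floor, so the folds of Cp from that pool are compressed. By the ratio of deposited intensities both the first step and the whole course were larger for Cp (36.3, 360 and 561) than for Timp1 (1363, 4957 and 6626). Each step compares 1 pool with 1, so no error could be attached to it.

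Across the 6 pools the normalized levels of the 4 genes ran together to different degrees, given here as Pearson's r over 6 pools that share genotype and stage, without a test. It was 0.96 between Timp1 and Cp, 0.956 between Cp and A2m, 0.916 between Timp1 and A2m, 0.881 between Cp and Lcn2, 0.831 between Timp1 and Lcn2 and 0.785 between A2m and Lcn2. Lcn2 was thus the least like the others. Among 1120 genes whose pools span at least 1 on the log2 scale, the closest to Timp1 were Cfb, complement factor B (r = 0.997), Olfml2b (0.995) and Plp2 (0.994). The closest to Cp were the phospholipase gene Pla1a (0.998), Parp3 (0.997) and the amino acid transporter gene Slc7a7 (0.997). The closest to A2m were Btg1 (0.997), an inhibitor of cell proliferation, Cttnbp2nl (0.986) and the tubulin gene Tubb5 (0.983), which share its high WT onset pool. The closest to Lcn2 were Cks2 (0.981), a partner of cyclin-dependent kinases, Arhgap11a (0.98) and Pxdc1 (0.977). Nearest to the median course of the 4 genes over the 3 stage-matched differences were Zfp36, which encodes an mRNA-decay protein, with differences of -0.0, 0.87 and 1.81, Slc66a3 with 0.09, 0.83 and 1.83, and Arpc1b, an actin-branching subunit, with 0.01, 1.11 and 2.11.

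The wider pathways of the 4 genes were read from 11 lists, which together held 108 other genes with a detected probe. Of these, 11 rose in the 2 symptomatic mutant pools (onset and end stage) against the 3 WT pools and 0 fell, by limma with Benjamini-Hochberg adjustment over 12711 probes, of which 1.23% were higher and 0.267% lower. The fit took the 2 symptomatic pools as replicates, and the adjusted p-values measure only the spread between these pools. With the WT presymptomatic, the WT end-stage or the mutant end-stage pool left out, 0 of the 11 passed, and without the WT onset pool 1 did, Psmb8. Without the mutant onset pool 4 passed, Aspg, Cd44, Gbp2 and Ptpn6, and all 11 estimates stayed positive throughout. With stage as a block 0 passed. In the presymptomatic mutant pool against the WT pools 0 of 12711 probes passed in limma, or 0.0% in either direction, with 1650 at an unadjusted p under 0.05 and between 36 and 129 past the threshold under 4 other settings.

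The reactive astrocyte lists, drawn from mouse work, were represented beyond Timp1, Cp and Lcn2 by genes that rose and genes that did not pass. Among 7 other pan-reactive genes 2 rose, Cd44, the hyaluronan receptor, by 0.51 ± 0.03 on the log2 scale (SE, adjusted p = 0.0153, limma), and Aspg, an asparaginase, by 0.74 ± 0.06 (adjusted p = 0.032, limma). Both are dim in WT, and with a lower noise estimate the differences were 1.55 for Cd44 and 2.39 for Aspg, or 1.5 and 2.36 from the authors' normalized values. Vim, the intermediate filament vimentin, had stage-matched differences of -0.22, 0.54 and 1.02 and did not pass (adjusted p = 0.0826, limma), and neither did Cxcl10, a chemokine (0.33, 1.42 and 1.39, adjusted p = 0.0788, limma). Hspb1, a small heat shock protein, differed by -1.17, 0.91 and 0.16. Serpina3n, a protease inhibitor, showed 0.05 ± 0.03 (SE) between symptomatic and WT pools and was detected on 1 array. The median end-stage difference of the 7 genes was 0.51, against -0.01 for all genes. Of 7 neurotoxic-type genes 2 rose, Gbp2, an interferon-induced GTPase, by 2.49 ± 0.17 (SE, adjusted p = 0.024, limma), and Psmb8, an immunoproteasome subunit, by 1.52 ± 0.17 (adjusted p = 0.0497, limma). Their list fellows ranged widely, from Serping1, the C1 inhibitor, with differences of 0.72, 1.18 and 2.22 (adjusted p = 0.143, limma), to Amigo2 with 0.32, -0.35 and -0.73. Of 6 ischaemia-type genes 1 rose, Emp1, an epithelial membrane protein, by 1.42 ± 0.12 (SE, adjusted p = 0.028, limma).

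The secreted acute-phase proteins other than A2m, Cp and Lcn2 numbered 12 with a detected probe. Of these 1 rose, Cfb, by 1.15 ± 0.12 on the log2 scale (SE, adjusted p = 0.0445, limma), and the median end-stage difference of the 12 was 0.06. Only 5 of the 12 were detected on all 6 arrays, and the rest lay near the floor of the scale, where differences are compressed. In those 5 the end-stage differences were 2.22 for Serping1, 1.33 for Cfb, 0.88 for Cd14, 0.18 for Pla2g2a and -0.21 for Itih3. Haptoglobin (Hp), a major acute-phase protein, had intensities of 39.9, 19.5 and 20.7 in WT and 1.58, 16.8 and 36.8 in the mutant, in order of stage. Its symptomatic difference on the normalized log2 scale was 0.01 ± 0.05 (SE, adjusted p = 0.966, limma). Crp, Fgb, Itih4, Saa4, Apcs, Ambp, Ttr and Rbp4 were detected on no array. The liver markers Apoh, Hpx, Cyp2e1 and Ahsg summed to between 17 and 37.1 intensity units over the WT pools and between 31.1 and 69.8 over the mutant pools.

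Of the cytokine pathways that act on acute-phase genes, few members passed. In the IL-6 and STAT3 list 1 of 12 rose, Ptpn6, a phosphatase of blood-derived cells and microglia that dampens this signalling, by 1.43 ± 0.06 on the log2 scale (SE, adjusted p = 0.0125, limma). Stat3 itself had differences of -0.40, 0.49 and 0.97 and a symptomatic difference of 0.77 ± 0.4 (SE, adjusted p = 0.452, limma). Cebpb, a C/EBP factor, had differences of 0.31, 0.8 and 1.53 (adjusted p = 0.156, limma). The cytokine genes Il6, Lif and Osm and the receptor genes Lifr and Osmr were detected on no array, whereas the IL-6 receptor gene Il6r was detected on all 6 and had differences of 0.3, 0.12 and 0.48 (adjusted p = 0.26, limma). In the IL-1, TNF and NF-kB list 2 of 17 rose, the TNF receptor gene Tnfrsf1a by 1.41 ± 0.11 (SE, adjusted p = 0.0273, limma) and the adaptor gene Myd88 by 0.74 ± 0.08 (adjusted p = 0.0427, limma), the latter by 1.42 with a lower noise estimate and 1.34 from the authors' normalized values.

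The targets, relatives and partners of the protease inhibitors followed no single course. Of 20 metalloproteinases and inhibitors besides Timp1, 0 passed, and their median end-stage difference was 0.06. Only 8 of the 20 were detected on all 6 arrays, and differences of dim probes near the floor are compressed. Mmp12, the macrophage metalloelastase, was detected in no WT pool nor in the presymptomatic mutant pool, and had intensities of 165 at onset and 323 at end stage in the mutant. Mmp14, a membrane-bound metalloproteinase, had differences of 0.09, 0.44 and 1.35, and Adamts1, which cleaves proteoglycans, -0.08, 0.46 and 1.44. The inhibitor genes Timp2 and Timp3 did not pass. Timp2 had intensities of 695, 676 and 146 in WT and 13.6, 693 and 55.2 in the mutant, and Timp3 28.3, 49.7 and 13.2 in WT and 4.09, 85.3 and 20.2 in the mutant. Of 6 binding partners of TIMP1 or alpha-2-macroglobulin 1 rose, Cd63, a tetraspanin that binds TIMP1 at the cell surface, by 1.49 ± 0.17 (SE, adjusted p = 0.0485, limma). Lrp1, the receptor that clears alpha-2-macroglobulin, was not analysed here. Of its thioester relatives 1 was detected, the complement gene C4b, with differences of -0.1, 1.8 and 2.25 (adjusted p = 0.0826, limma).

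Among genes that handle iron, copper and lipocalins 1 passed. Of 22 iron and copper genes besides Cp and Lcn2 this was Hmox1, the haem-degrading enzyme, which rose by 0.84 ± 0.09 on the log2 scale (SE, adjusted p = 0.0469, limma). Ftl1, the ferritin light chain, had differences of 0.13, 0.66 and 0.69 and did not pass (adjusted p = 0.066, limma), and Hfe, a regulator of iron uptake, had -0.94, -0.64 and -0.31. The median end-stage difference of the 22 was 0.02, with 14 of them detected on all 6 arrays and the dim ones compressed by the floor. Of 6 lipocalin-list genes 0 passed, among them Slc22a17, which encodes a lipocalin 2 receptor and had log2 differences of -0.51, -0.26 and -0.28 (adjusted p = 0.224, limma).

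**Figure D4:**
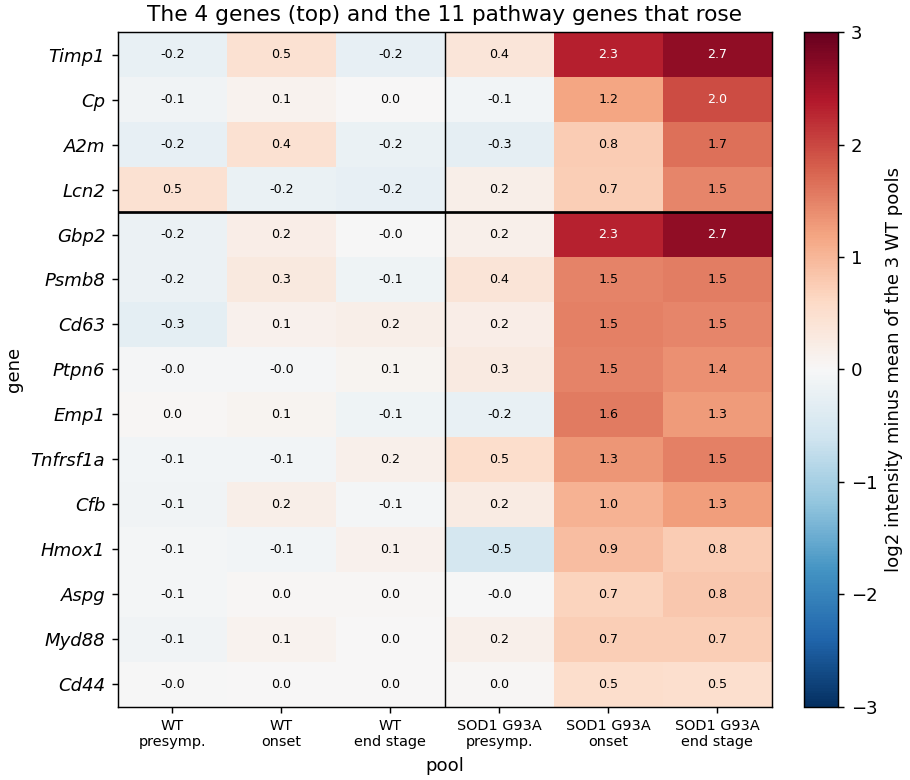
Normalized log2 intensity of each pool minus the mean of the 3 WT pools (colour and printed value, in log2 units), with genes as rows and pools as columns, for the 4 genes above the line and the 11 pathway genes that rose in the limma test under it. WT columns lie near 0, with Timp1, A2m and Lcn2 the rows that vary most among WT, and the 2 right-hand columns are positive in every row.

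Cell type markers were read beside the 4 genes, since in bulk tissue more cells of a type and more RNA per cell cannot be told apart. Of 14 astrocyte markers 10 were detected, all on all 6 arrays, 0 passed the test, and their median stage-matched differences were -0.19, -0.06 and -0.51. Their summed intensity was 50622, 43348 and 50081 in WT and 50021, 43105 and 38504 in the mutant, lowest in the end-stage mutant pool, where the 4 genes were highest. The marker Mlc1, which encodes a membrane protein of astrocyte end-feet, was 2.64-fold higher in the mutant at onset, but its log2 differences before symptoms and at end stage were -2.23 and -0.6. Aldoc, a glycolytic enzyme of astrocytes, differed by -0.60 at end stage, and Slc1a3, a glutamate transporter, by 0.35. Gfap, Aldh1l1, Glul and Sox9 were not analysed here. No measurement on these arrays assigned any of the 4 genes to astrocytes, so they are called here by their names.

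Most microglia and macrophage markers were higher in the same pools as the 4 genes. Of 11 detected markers 8 rose, namely Aif1, C1qa, C1qb, C1qc, Cd68, Itgam, Trem2 and Tyrobp, and 0 fell. Of all 12711 probes 1.23% were higher and 0.267% lower. Cx3cr1, P2ry12 and Tmem119 did not pass, with stage-matched log2 differences of 0.11, 0.33 and 0.01 at onset. At end stage theirs were 0.02, 0.05 and -0.04. All 3 lay near the floor of the scale at 6.62, where differences are compressed. Deposited intensities at onset were 13.3 in WT and 52.2 in the mutant for Cx3cr1, 115 and 198 for P2ry12, and 18 and 23.5 for Tmem119. At end stage they were 19.8 and 23.9 for Cx3cr1 and 64.2 and 80.7 for P2ry12, and Tmem119 was not detected in the mutant. Cx3cr1 was not detected in the presymptomatic and onset WT pools. Cd68, a lysosomal protein of phagocytes, rose by 4.45 ± 0.12 on the log2 scale (SE, adjusted p = 0.0079, limma), and C1qb, a complement subunit, by 2.28 ± 0.24 (adjusted p = 0.0446, limma). With the mutant or WT end-stage pool left out 0 of the 8 passed, without the WT presymptomatic pool 1, Cd68, and without the WT onset or the mutant onset pool 2 each, and with stage as a block 0. The summed intensity of all 11 was 4965, 6037 and 6103 in WT and 5691, 23430 and 25229 in the mutant. The step lay between the presymptomatic and onset mutant pools, as for Timp1, and was nearly absent between onset and end stage, where Cp, A2m and Lcn2 still differed. The part of these cells in the levels of the 4 genes was not tested.

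Most markers of meninges and fibroblasts were higher in the mutant than in WT at end stage, the stage at which A2m was high. Of 12 such markers, all detected on all 6 arrays, 8 were at least 2-fold higher in the mutant than in WT at end stage and 1 at onset. Among all genes the shares were 3.68% at end stage and 1.88% at onset. Of the 12 markers 0 passed the test. Their median differences were -0.01, 0.13 and 1.23. Their summed intensity was 26010, 32034 and 19744 in WT and 24818, 34918 and 43095 in the mutant. Col1a2, a collagen, had 9603, 8401 and 5998 in WT and 8122, 10190 and 13641 in the mutant. As with Timp1, Cp and A2m, the summed level in WT was highest in the onset pool. It was lowest in the WT end-stage pool, so the end-stage count is measured against a low WT pool. Markers of T cells summed to between 70.2 and 120.2 in WT and to 138.6, 316.3 and 456.7 in the mutant, with 0 of 5 past the test. In the onset and end-stage mutant pools Cd8a had 112 and 197 and Cd8b 64.8 and 90.7, and neither exceeded 15.3 in WT. The other markers differed less, with 97.9 and 116 for Cd3g against 81.3 and 50 in WT of those stages. Cd3d had 25.5 and 26.3 against 17.3 and 14.4, and Lck 15.8 and 26.6 against 14.5 and 4.39. Endothelial and pericyte markers, 7 detected, had median differences of -0.01, -0.02 and 0.01, and the choroid plexus marker Ttr was detected on no array. The part of these cells in the levels of the 4 genes was not tested either.

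In RefSeq, Timp1 lies within the span of Syn1, a synaptic vesicle gene, and Cp overlaps Hps3, while A2m and Lcn2 overlap no other gene. Whether the Timp1 and Cp probes read any transcript of these neighbours was not tested.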

How the data were processed

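Pooled spinal cord RNA was hybridised to 6 Illumina arrays. The authors deposited, per the file headers, an intensity with its detection p-value for each probe, and a second table of normalized intensity by a method that the sources used here do not give. BeadStudio 3.2.6 is named in the submitters' processing notes. Deposited intensities were already background-subtracted, with array means of 330.9 to 332.4.

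Probe IDs were sorted as text, and 13192 of 22226 probes then had 1 gene symbol. Values were normalized with neqc in limma 3.58.1 (R 4.3.3), with an offset of 16, quantile normalization and log2. Probes with a detection p under 0.01 on at least 1 array were kept (12711), and the brightest kept probe stood for its gene. Differences of 1 pool against 1 were counted at 2-fold. For genes other than the 4, limma (lmFit, eBayes, two-sided, 3 residual degrees of freedom, threshold 0.05) compared the mutant onset and end-stage pools with the 3 WT pools. The fit was also run on simulated data with independent noise in each pool. That run cannot show whether the real pools act as replicates. Nothing says that the pools are replicates, so p-values measure the spread between these pools alone.

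The members and gene lists were chosen with earlier results of these data known. Named were the 4 genes, up to 5 genes of each pathway list by the size of the mean onset and end-stage difference and any past the threshold, up to 3 of the highest markers per cell type, the 3 genes most correlated with each member or nearest to their median course, and neighbours in rank. Hp, Pla2g2a, Timp2, Timp3, Slc1a3, Mlc1, Cx3cr1, P2ry12, Tmem119, Cd3d, Lck, Alas2, Hemgn, Slc4a1, markers past the test or not detected, and Ahsg were named beyond that, after their values were seen. Alternatives were a lower noise estimate, an offset of 50, a 75th-percentile shift, the authors' normalized values, other probe filters, a trended robust prior, stage as a block, leaving out pools, the mean of the WT pools as reference, and the IDs as deposited. A fit without the presymptomatic mutant pool was added after seeing the data.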

Additional observations from a re-analysis of the deposited data

Results flagged for a closer look

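A2m and Lcn2 each had differences of opposite sign at different stages. The A2m log2 difference, mutant minus WT of the same stage, was -0.01 before symptoms and 1.86 at end stage. That of Lcn2 was -0.27 before symptoms and 1.7 at end stage. Each value compares 1 pool with 1, and the change between stages was not tested. The presymptomatic difference of A2m is near 0 and was 0.12 under a 75th-percentile shift. That of Lcn2 was 0.18 when measured from the mean of the WT pools.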

How the results depend on the processing

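The mean onset and end-stage log2 difference was 2.39 for Timp1, 1.52 for Cp, 1.08 for A2m and 1.32 for Lcn2, and among normalizations only that of Cp moved by more than the SD of its WT pools. Cp gave 2.15 with a lower noise estimate, 1.31 with an offset of 50 and 2.09 from the authors' normalized values, and it is the gene nearest the floor. With the IDs as deposited, which names other probes, the 4 values were 0.0, 0.04, 0.07 and 0.0, and the end-stage values of Timp1 and A2m turned to -0.01 and -0.11.

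The 190 probes called between symptomatic mutant and WT pools became 436 with the lower noise, 413 with a 75th-percentile shift (251 higher and 162 lower), 344 from the authors' values (326 higher and 18 lower) and 601 with a trended robust prior. With stage as a replicate block 0 were called (1834 at an unadjusted p under 0.05), and leaving out single pools gave 0 to 213. The presymptomatic count of 0 became 129, 36, 76 and 38 under the same 4 settings. Of the 11 pathway calls, 11, 10, 9 and 11 were kept under these settings, 8 with an offset of 50, and 0 with the block.

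Counts of 2-fold genes also depend on the noise model. With the lower noise they were 214 higher and 646 lower before symptoms, 288 and 46 at onset, and 549 and 270 at end stage. From the authors' values they were 204 and 577, 299 and 55, and 600 and 262. The offset of 50 gave 14 higher before symptoms and 8 lower at onset. The mean of the WT pools as reference gave 4 and 134 before symptoms and 31 lower at onset, and the 75th-percentile shift gave 381 lower at end stage. Under that shift the median difference of all genes was 0.14 before symptoms, -0.02 at onset and 0.16 at end stage. Dim probes such as Cp before symptoms are limited by their signal over background. The cause of each move was not tested.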

Other observations

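Skeletal muscle transcripts were low in the end-stage mutant pool, where 8 of 9 detected markers were at least 2-fold lower than in WT of that stage. Among all genes the share was 1.86%. The summed intensity of the 9 was 3374, 5046 and 8037 in WT, highest at end stage, and 2832, 5014 and 1554 in the mutant. Tnnc2, a fast troponin subunit, had intensities of 724, 1073 and 2023 in WT and 877, 877 and 237 in the mutant, and 0 of the 9 passed the limma test. Of 7 detected motor neuron markers 3 were at least 2-fold lower at end stage, beside the same 1.86% of all genes, and 0 passed. Slc18a3, the vesicular acetylcholine transporter, had 839, 610 and 1006 in WT and 1135, 430 and 255 in the mutant, and its symptomatic difference was -1.38 ± 0.34 on the log2 scale (SE, adjusted p = 0.175, limma). Ahsp, a haemoglobin chaperone of red cell precursors, had 806, 260 and 150 in WT and 378, 149 and 113 in the mutant, in order of stage. Its WT maximum lay in the presymptomatic pool, as did those of Lcn2, S100a8 and Mpo. Red blood cell markers did not share one course, and besides Ahsp only Hemgn and Slc4a1 were highest among WT in that pool. Hbb (16778, 24875 and 22398 in WT), Hba-a1 (15654, 18604 and 17728) and Alas2 (81.9, 140 and 98.5) were lowest among WT there.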
